A study of Mus musculus with 15 samples.

Results

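Ribosomal protein genes encode the proteins that, together with ribosomal RNA, form the large and the small subunit of the cytosolic ribosome. They were taken from the count table by symbol: Rpl or Rps followed by a number and, where present, 1 of the suffixes a, x, l, al or l1, plus Rplp0, Rplp1, Rplp2 and Rpsa. This gave 87 genes of the 55367 symbols in the table, 54 of the large and 33 of the small subunit. The symbol rule itself uses no measured value.

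The RNA came from medial cortex of C57BL/6 mouse embryos at E11.5, the wall of the forebrain in which neural progenitors begin to make neurons. Dissociated cells were stained with annexin V, a marker of phosphatidylserine exposed at the cell surface, and with propidium iodide (PI), a dye kept out by intact membranes. Bulk libraries were then made with a modified smart-seq2 protocol, which amplifies cDNA from small inputs. The 2 groups were AnnexinV-positive, PI-negative cells (6 libraries) and cells negative for both stains, called double-negative (6 libraries). The labels give no genotype or treatment for either group, and say nothing of separate embryos, litters or sorts behind the libraries. The p-values below therefore describe the scatter of these 12 libraries, part of which may be technical.

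Cells make the ribosomal proteins in near equal numbers, and proteins left without a ribosome are degraded. Most of their mRNAs belong to the TOP class: they begin with a C followed by a stretch of C and T, the terminal oligopyrimidine motif, through which the kinase complex mTORC1 and the RNA-binding protein LARP1 set how much of the mRNA is translated. Growing and dividing cells, neural progenitors among them, are known for high ribosome production. An excess of free RPL5 and RPL11, bound to 5S ribosomal RNA, blocks MDM2 and so stabilises p53.

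Sequences near the annotated starts of 9 genes are shown to look for such a stretch. Of these genes, 5 were among the members with the smallest p in the comparison below and 4 held the longest stretches. Each line gives 30 bases of the sense strand, 5′ to 3′, near the RefSeq transcription start on GRCm38.p6. The 30 bases are placed around the longest run of C and T that begins with C, in capitals, and need not hold the start itself.
Rps19, chr7:24884907-24884936, plus strand: gggtgtggagggCTCTCCCacgcggtcacc
Rps23, chr13:90923113-90923142, plus strand: ggctgggcggggCTTCCCgcaatgccttgt
Rpl13, chr8:123102324-123102353, plus strand: cgtgacgtcaCTTCCCTTTCgcctgatttt
Rpl19, chr11:98026903-98026932, plus strand: ggggcttgggCTCTCCCCTTCgcagataat
Rpl5, chr5:107900497-107900526, plus strand: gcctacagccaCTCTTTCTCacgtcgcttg
Rpl27a, chr7:109519186-109519215, plus strand: gtgagCTCCTCCCTTTTCCCTTTCTgccac
Rpl34, chr3:130730330-130730359, minus strand: acccgCCCCTTCCTTTTCCTCTTCCgggga
Rpl7a, chr2:26910789-26910818, plus strand: acaattCCCTCTTCTTTCTTTCTCCagcag
Rpl35, chr2:39005115-39005144, minus strand: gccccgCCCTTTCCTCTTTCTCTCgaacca

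The runs were 20 bases long in Rpl27a and Rpl34, 7 in Rps19 and 6 in Rps23, the last below the minimum of 7 used for the shares that follow. None began exactly at the annotated start. Those of Rps19 and Rps23 began after it, and those of Rpl13, Rpl19 and Rpl5 ended before it. The printed runs thus do not by themselves show a TOP mRNA. RefSeq windows were at hand for 60 of the 80 members that entered the fit. A run of at least 7 bases that overlapped the 25 bases on either side of the start, on the sense strand alone, was found in 38 of these 60 genes (63.3%). The share was 62.2% for the large and 65.2% for the small subunit. It was 31.5% of 2967 other tested genes and 30.6% of all 27025 genes with a RefSeq window. Of the other mRNAs counted to the TOP class, mostly translation factors, 9 of 15 held such a run. The run went with no larger fold change: the median log2 fold change was 0.64 over the 38 members with it and 0.62 over the 22 without. A run is a match of letters, and a gene without one in this window may start elsewhere.

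The libraries were shallow. Total counts ran from 88198 to 329821 in double-negative and from 190704 to 444421 in AnnexinV-positive libraries, after rounding to whole numbers. Between 21.5% and 43.6% of each library came from the rRNA gene CT010467.1. Haemoglobin genes took 11.997%, 30.8% and 12.3% of the counts in libraries 1, 2 and 3 of the double-negative group, and no more than 0.00964% in any other library. Shares below are therefore percent of the counts without haemoglobin genes and CT010467.1. Double-negative libraries had 6573 to 8889 genes with a count and AnnexinV-positive libraries 9152 to 10069, without overlap.

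Of the 87 genes, 80 passed the filter on low counts, 49 of the large and 31 of the small subunit, on 19 chromosomes. Of the other 7, Rpl6l, Rps4l and Rpl32l had 32, 21 and 2 counts over the 12 libraries. Rpl10l, Rpl3l, Rpl39l and Rps12l1 had 0, and the upper limit that 0 counts leave for their share is 0.000971% in the deepest library and 0.00573% in the shallowest. Rpl6l, Rps4l, Rpl32l and Rps12l1 are annotated as pseudogenes in GENCODE M21, and the other 83 genes as protein-coding. Rpl3l, Rpl10l and Rpl39l encode variants known from muscle and testis.

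Both subunits took a larger part of the counts in AnnexinV-positive than in double-negative libraries, with some overlap. For the large subunit, double-negative libraries 1 to 6 stood at 1.78%, 2.05%, 1.76%, 2.42%, 1.49% and 2.32% of counts. AnnexinV-positive libraries 1 to 6 stood at 2.59%, 2.31%, 2.33%, 3.27%, 3.57% and 4.10%. All 6 lay above the double-negative median and 4 of them above the highest double-negative library. The group means were 3.03% ± 0.735 and 1.97% ± 0.360 (SD, n = 6 each), a ratio of 1.54.

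For the small subunit, double-negative libraries 1 to 6 stood at 1.15%, 1.34%, 1.19%, 1.73%, 0.975% and 1.59% of counts, and AnnexinV-positive libraries at 1.77%, 1.59%, 1.66%, 2.23%, 2.62% and 3.04%. The means were 2.15% ± 0.587 and 1.33% ± 0.286 (SD, n = 6 each), a ratio of 1.62. Again 6 of 6 lay above the double-negative median and 4 above the highest double-negative library. Exact binomial 95% intervals were narrow beside the spread between libraries, for example 1.65% to 1.87% for the large subunit in double-negative library 3, the shallowest, and 4.03% to 4.18% in AnnexinV-positive library 6. They cover counting error only, since no molecular identifiers are mentioned. In bulk RNA a larger share per cell and more cells with a large share cannot be told apart.

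**Figure D1:**
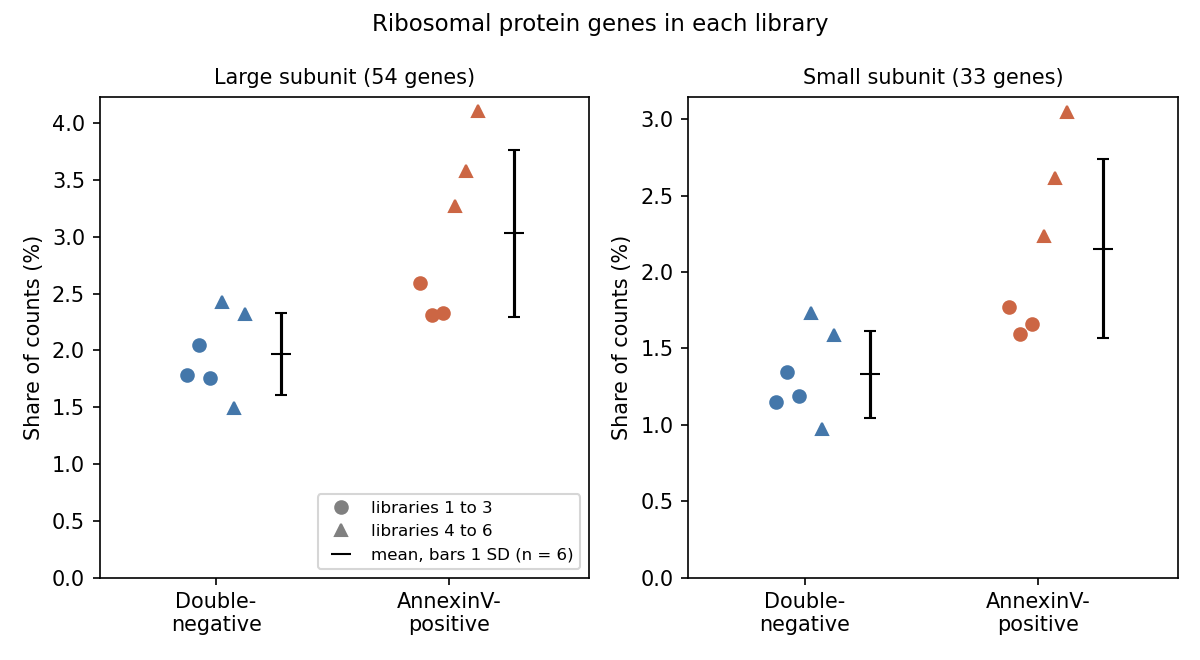
Share of counts (percent, without haemoglobin genes and the rRNA gene) taken by the 54 large-subunit genes and the 33 small-subunit genes in each library; circles are libraries 1 to 3, triangles libraries 4 to 6, and bars the mean and 1 SD (n = 6). AnnexinV-positive libraries 4 to 6 are the highest in both panels, at 3.27% to 4.10% and 2.23% to 3.04%, and AnnexinV-positive libraries 2 and 3 lie below double-negative library 4 in both.

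In the AnnexinV-positive group libraries 4 to 6 all lay above libraries 1 to 3, while in the double-negative group the sets overlapped. The AnnexinV-positive and double-negative libraries did not overlap within either set. In libraries 1 to 3 the large subunit took 2.41% ± 0.158 in the AnnexinV-positive group and 1.86% ± 0.161 in the double-negative group (SD, n = 3 each). In libraries 4 to 6 it took 3.65% ± 0.420 and 2.08% ± 0.513. The small subunit took 1.67% ± 0.0889 and 1.23% ± 0.103 in libraries 1 to 3, and 2.63% ± 0.406 and 1.43% ± 0.403 in libraries 4 to 6 (SD, n = 3 each). The labels do not say what separates these sets.

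The proportion of the subunits to each other was also compared. Large-subunit counts were 1.42 ± 0.0517 times the small-subunit counts in the AnnexinV-positive group and 1.49 ± 0.0562 times in the double-negative group (SD, n = 6 each). The ratio ran from 1.35 to 1.47 and from 1.40 to 1.55. The 6 AnnexinV-positive libraries all lay below the double-negative median of 1.502, but the groups overlapped.

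Gene by gene, all 80 tested members had a positive log2 fold change (AnnexinV-positive over double-negative), from 0.07 for Rpl37 to 1.42 for Rpl30. The median was 0.61 over the large subunit, with quartiles of 0.44 and 0.74, and 0.66 over the small subunit, with quartiles of 0.46 and 0.81. Over all 3800 tested genes the median was 0.06 and 53.3% were positive. With the threshold at 0.05 for adjusted p (quasi-likelihood test of edgeR), 1 member was higher, Rps19, and 0 were lower. Over all tested genes 15 were higher (0.395%) and 56 lower (1.47%). No member was lower at an unadjusted p under 0.05 either, and 0 were lower by DESeq2 or voom. An unadjusted p under 0.05 was found for 37 of the 80 members, 22 of the large and 15 of the small subunit, all of them higher. Over all tested genes 15.7% had such a p in either direction, and 7.97% had it and were higher. Leaving out 1 library gave 17 to 45 such members, with 17 without AnnexinV-positive library 6. The share of all genes was not taken for those fits.

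The members were measured in the same 12 libraries and are not replicates of each other, so the count of 80 of 80 is a description and carries no p. Of the 80, 43 had all 6 AnnexinV-positive libraries above the double-negative median and 66 had at least 5. The share of all tested genes that meet either rule was not taken, so these counts do not set the members apart. Without any overlap between the groups, 3 members were higher, Rpl13, Rpl30 and Rps23, where 1.32% of all tested genes were. The median standard error (SE) of the log2 fold change was 0.30 over the members and 0.58 over all genes. Ribosomal protein mRNAs are short and abundant, and so are some other genes. Of 442 other genes with a median transcript of at most 1000 bases, 62.9% were positive, with a median log2 fold change of 0.21, and of 406 other genes whose mean log2 CPM was 8 or more, 57.4% were, with a median of 0.11. Of the tested members, 62 had a transcript of at most 1000 bases.

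How many members passed moved with the method, and so did the share of all genes called higher. With RLE factors 0 members passed (0.368% of all genes), and with upper-quartile factors 4 did (1.11%), Rpl13, Rpl30 and Rps19 among them. Scaling by library size only called 7 members (1.37%) and testing without a filter 4 (0.595%). DESeq2 called 6 members (2.31%), voom 2 (0.632%) and limma on the deposited TPM values 4 (0.447%). A term for the sets of libraries gave 3 (0.737%), the replicate number as a block 1 (0.5%) and TMM factors from non-members 2 (0.447%). Of the members called in these 10 settings, 0 were lower.

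**Figure D2:**
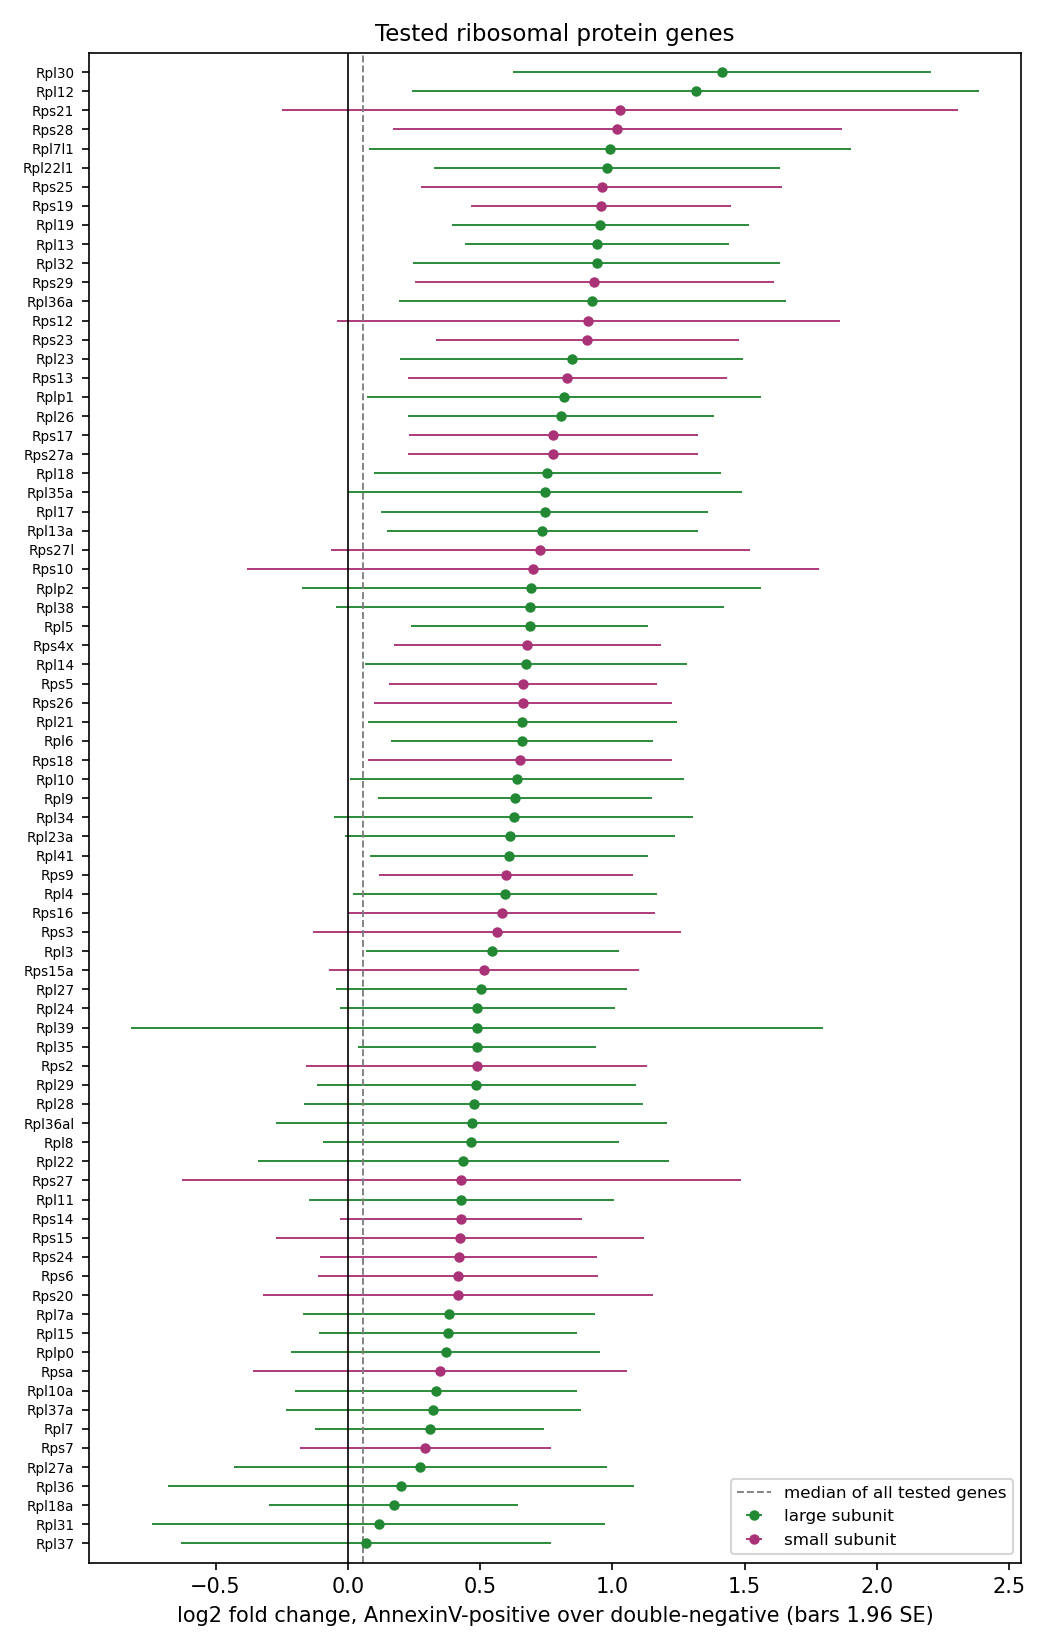
Log2 fold change of 78 of the 80 tested genes, AnnexinV-positive over double-negative, with bars for the normal 95% interval, for the large subunit (green) and the small subunit (purple); the dashed line is the median of all tested genes, 0.06. Every point lies to the right of 0, from 0.07 (Rpl37) to 1.42 (Rpl30), and many bars cross 0.

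Of the small subunit, Rps19 stood out. It encodes a protein needed to process the precursor of 18S ribosomal RNA, and mutations of its human counterpart cause Diamond-Blackfan anaemia. It lies on chromosome 7 at 24884371 to 24889806 (plus strand, GRCm38) in GENCODE M21. The short run printed above lies just after its RefSeq start, which is downstream of the first of these positions. In counts per 1000000 counts, scaled with TMM factors (CPM), double-negative libraries 1 to 6 held 751, 670, 538, 922, 591 and 878 CPM, and AnnexinV-positive libraries 941, 853, 1179, 1362, 1761 and 2374 CPM. Of the AnnexinV-positive libraries, 5 lay above the highest double-negative value and library 2 did not. The means were 1411 ± 572 and 725 ± 154 CPM (SD, n = 6 each), and Rps19 rose with a log2 fold change of 0.96 (SE 0.25, adjusted p = 0.042 in edgeR). The call was lost in 15 of 30 alternative settings, over all of which adjusted p ran from 0.00237 to 0.353. Leaving out 1 of double-negative libraries 1, 2, 3 and 5 or of AnnexinV-positive libraries 4, 5 and 6 ended it, with the Rps19 log2 fold change then between 0.73 and 0.98 and adjusted p between 0.0743 and 0.164.

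Rps23 was also among the 4 small-subunit genes with the smallest p. Its protein belongs to the decoding centre of the ribosome. It ran from 130 over a median of 234 to 353 CPM in double-negative and from 364 over a median of 425 to 565 CPM in AnnexinV-positive libraries, so the groups did not overlap. Its log2 fold change was 0.91 (SE 0.29, adjusted p = 0.107 in edgeR). Ranges below are given in the same way, as the lowest library, the median and the highest, with double-negative libraries first.

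Other small-subunit genes with known regulatory roles did not pass. Rps6, whose protein is phosphorylated downstream of mTORC1, ran from 340 over 657 to 1305 CPM in double-negative and from 736 over 1045 to 1271 CPM in AnnexinV-positive libraries. No AnnexinV-positive library exceeded the highest double-negative one, library 4, and the log2 fold change was 0.42 (SE 0.27, adjusted p = 0.485 in edgeR). Rps14, the gene lost in human 5q− syndrome, had 543 over 813 to 893 CPM and 657 over 1007 to 1503 CPM (0.43, SE 0.23, adjusted p = 0.385 in edgeR). Rpsa, also known as the laminin receptor, had 30.7 over 288 to 440 CPM and 241 over 337 to 565 CPM (0.35, SE 0.36, adjusted p = 0.696 in edgeR). Rps4x, on the X chromosome, had 300 over 542 to 708 CPM and 568 over 769 to 1286 CPM (0.68, SE 0.26, adjusted p = 0.184 in edgeR).

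Of the large subunit, Rpl13 and Rpl30 had no overlap between the groups. Rpl13 lies on chromosome 8 at 123102350 to 123105244 (plus strand, GRCm38). Its double-negative libraries held 417, 305, 169, 397, 518 and 378 CPM and its AnnexinV-positive libraries 660, 594, 593, 691, 900 and 800 CPM. The means were 706 ± 122 and 364 ± 118 CPM (SD, n = 6 each), with a log2 fold change of 0.94 (SE 0.25, adjusted p = 0.0525 in edgeR). It passed in 10 of 30 alternative settings. Rpl13 differed about equally in both sets of libraries, by 1.01 (SE 0.33) in 1 to 3 and 0.85 (SE 0.31) in 4 to 6 on the log2 scale.

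Rpl30, whose protein also binds the SECIS element of selenoprotein mRNAs, lies on chromosome 15 at 34440505 to 34443640 (minus strand, GRCm38). Double-negative libraries held 83.5, 87.1, 108, 35.5, 81.0 and 43.2 CPM and AnnexinV-positive libraries 115, 178, 229, 214, 174 and 232 CPM. The means were 190 ± 44.6 and 72.9 ± 27.8 CPM (SD, n = 6 each). Its log2 fold change, 1.42 (SE 0.40), was the largest of the 80, and its adjusted p was 0.0659 in edgeR. Rpl19, the next by p, ran from 154 over 254 to 392 CPM and from 268 over 569 to 651 CPM, with 5 of 6 AnnexinV-positive libraries above every double-negative one (0.95, SE 0.29, adjusted p = 0.0785 in edgeR).

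**Figure D3:**
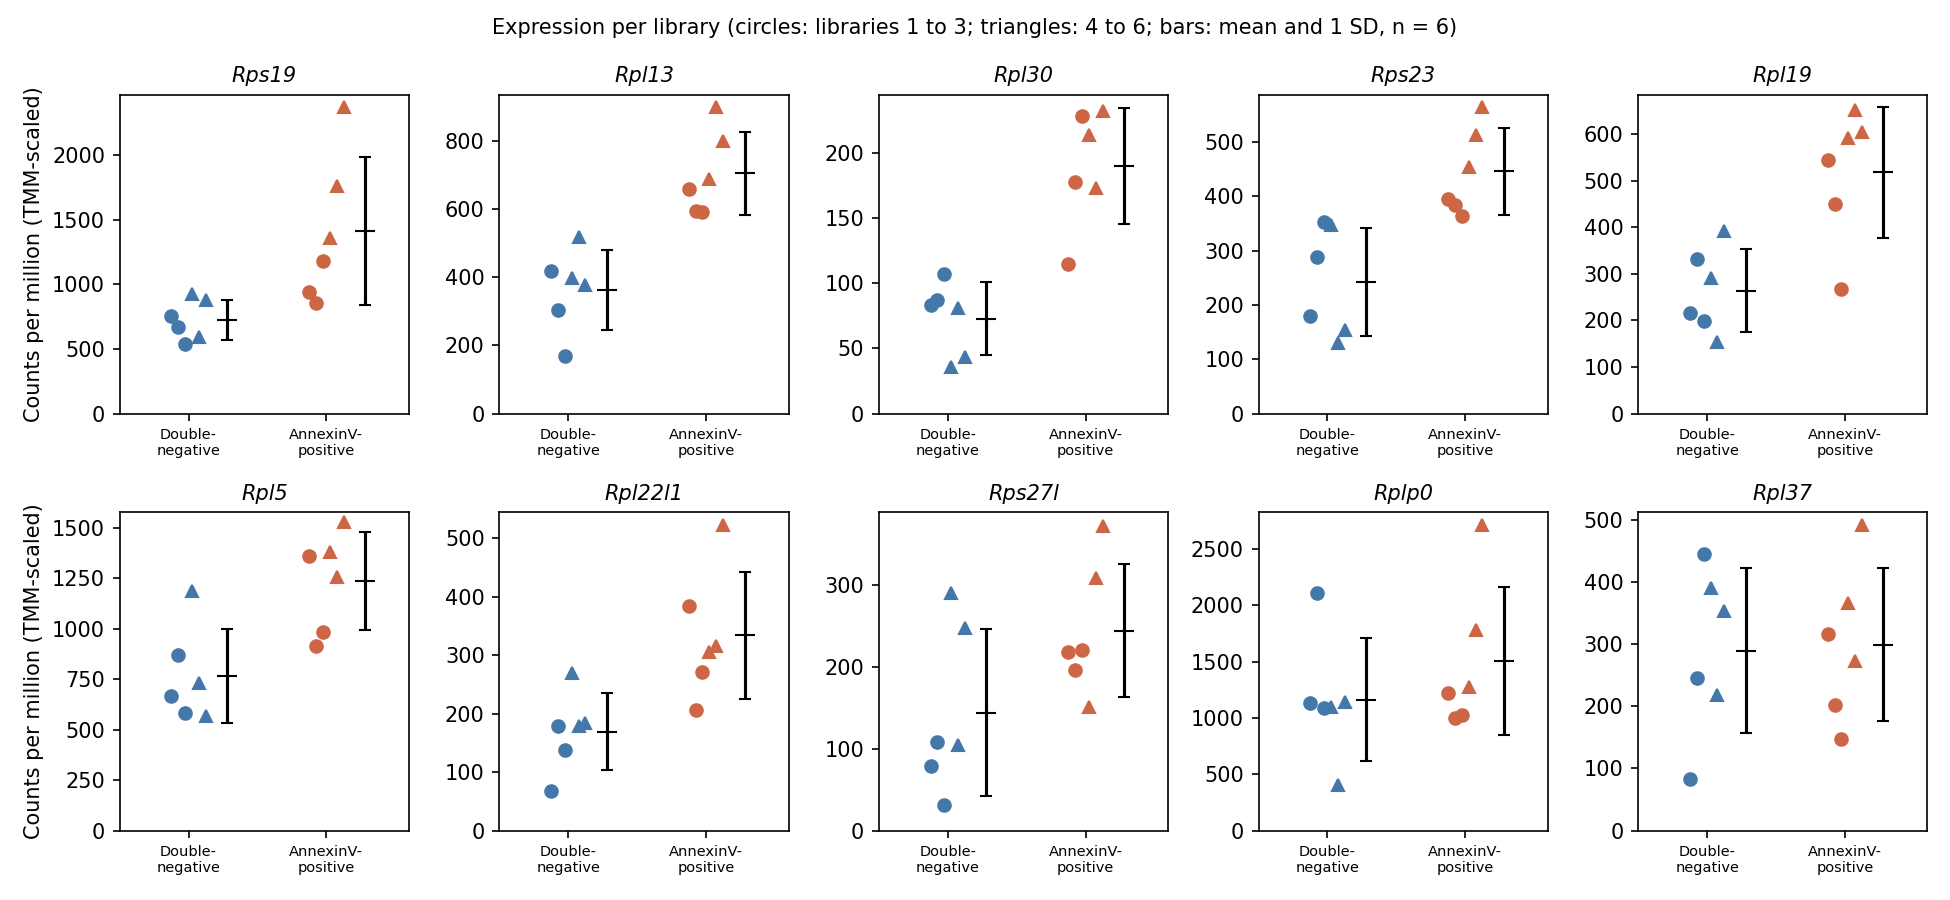
CPM (TMM-scaled) of 10 ribosomal protein genes in each library, with the mean and 1 SD (n = 6); circles are libraries 1 to 3 and triangles libraries 4 to 6. Rpl13, Rpl30 and Rps23 show no overlap between the groups, Rps19 rose with 5 of 6 AnnexinV-positive libraries above the double-negative range, and Rpl37 shows full overlap.

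Rpl5 and Rpl11, the partners of 5S rRNA in the p53 surveillance complex, both had positive values without passing. Rpl5 ran from 565 over 698 to 1185 CPM in double-negative and from 912 over 1308 to 1528 CPM in AnnexinV-positive libraries. Double-negative library 4 held the 1185 CPM, and the other 5 double-negative libraries lay below every AnnexinV-positive one (0.69, SE 0.23, adjusted p = 0.118 in edgeR). Without that library the Rpl5 log2 fold change was 0.84 and passed (adjusted p = 0.0377 in edgeR). In that fit 41 of 3800 genes were called higher, against 15 in the main fit. Rpl5 passed in 3 of 30 alternative settings. Rpl11 ran from 206 over 267 to 299 CPM and from 163 over 351 to 550 CPM, with AnnexinV-positive library 2 the lowest of the 12 (0.43, SE 0.29, adjusted p = 0.520 in edgeR).

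The stalk of the large subunit, which recruits the GTPases of translation, is built of the proteins of Rplp0, Rplp1 and Rplp2. Rplp0 ran from 405 over 1112 to 2107 CPM in double-negative and from 1003 over 1250 to 2713 CPM in AnnexinV-positive libraries (0.37, SE 0.30, adjusted p = 0.600 in edgeR). Rplp1 had 70.9 over 101 to 184 CPM and 137 over 179 to 379 CPM (0.82, SE 0.38, adjusted p = 0.293 in edgeR), and Rplp2 32.4 over 96.6 to 136 CPM and 71.4 over 134 to 246 CPM (0.69, SE 0.44, adjusted p = 0.477 in edgeR). The groups overlapped for all 3 genes. In libraries 1 to 3 alone the log2 fold change was −0.42 (SE 0.28) for Rplp0, 0.05 (SE 0.51) for Rplp1 and −0.28 (SE 0.60) for Rplp2. In libraries 4 to 6 alone it was 1.07 (SE 0.39), 1.47 (SE 0.50) and 1.42 (SE 0.58).

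Several ribosomal protein genes have an expressed paralog. Rpl22l1, the paralog of Rpl22, ran from 66.8 over 179 to 270 CPM in double-negative and from 207 over 311 to 522 CPM in AnnexinV-positive libraries (0.98, SE 0.33, adjusted p = 0.127 in edgeR). Rpl22 itself had 58.4 over 121 to 162 CPM and 92.9 over 156 to 235 CPM (0.44, SE 0.40, adjusted p = 0.646 in edgeR). Whether the paralogs differ in their change was not tested.

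Rps27l, a paralog of Rps27 known as a p53 target in human cells, ran from 30.7 over 107 to 291 CPM and from 151 over 220 to 373 CPM (0.73, SE 0.40, adjusted p = 0.399 in edgeR). Rps27 had 42.6 over 63.4 to 104 CPM and 34.4 over 81.0 to 202 CPM (0.43, SE 0.54, adjusted p = 0.749 in edgeR). The sets of libraries gave unlike values for these genes: Rps27l had 1.44 (SE 0.54) in libraries 1 to 3 and 0.31 (SE 0.49) in 4 to 6, and Rps27 −0.79 (SE 0.78) and 1.20 (SE 0.68).

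Rpl36a and its intronless relative Rpl36al had 58.4 over 111 to 178 CPM against 132 over 218 to 327 CPM (0.92, SE 0.37, adjusted p = 0.210 in edgeR) and 81.0 over 114 to 191 CPM against 92.9 over 179 to 248 CPM (0.47, SE 0.38, adjusted p = 0.599 in edgeR), double-negative first. Rpl7l1, whose yeast relative acts in ribosome assembly, had 32.4 over 69.7 to 108 CPM and 80.3 over 130 to 207 CPM (0.99, SE 0.46, adjusted p = 0.296 in edgeR). Of genes with a silent paralog, Rpl3 had 230 over 423 to 553 CPM and 539 over 572 to 716 CPM (0.55, SE 0.24, adjusted p = 0.269 in edgeR). Rpl10 had 61.4 over 285 to 348 CPM and 225 over 362 to 550 CPM (0.64, SE 0.32, adjusted p = 0.338 in edgeR). Rpl39 had 8.10 over 46.9 to 121 CPM and 17.2 over 75.6 to 128 CPM (0.49, SE 0.67, adjusted p = 0.770 in edgeR), and here 1 count was worth 2.41 to 15.4 CPM.

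Rpl38, needed in mouse embryos for the translation of Hox mRNAs, had 97.1 over 126 to 218 CPM and 115 over 184 to 403 CPM (0.69, SE 0.37, adjusted p = 0.384 in edgeR). At the low end stood Rpl37 and Rpl31. Rpl37 ran from 83.5 over 299 to 445 CPM in double-negative and from 146 over 294 to 492 CPM in AnnexinV-positive libraries (0.07, SE 0.36, adjusted p = 0.9502 in edgeR). Its 95% interval, −0.63 to 0.77, still holds the median of the large subunit. Rpl31 had 0 counts in double-negative library 3 and up to 251 CPM in that group, and 129 over 179 to 259 CPM in AnnexinV-positive libraries (0.12, SE 0.44, adjusted p = 0.926 in edgeR).

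In libraries 1 to 3 alone 63 of the 80 members were positive, with medians of 0.32 over the large and 0.37 over the small subunit. In libraries 4 to 6 alone 79 were, all but Rpl31, with medians of 0.74 and 0.87. In edgeR 0 members passed in libraries 1 to 3 (0.29% of all genes were higher there) and 0 in libraries 4 to 6 (0.0789%). An unadjusted p under 0.05 was found for 9 and 32 members. The share of all genes at that p, 15.7% in the fit of all 12 libraries, was not taken for these sets. A term for the difference of the group effect between the sets called 3 of 3800 genes (0.0789%) and 0 members. The smallest p among the members belonged to Rps2, with a difference of 1.81 on the log2 scale (adjusted p = 0.381 in edgeR), and Rplp0, with 1.54 (adjusted p = 0.426 in edgeR). Both were chosen here after their values were seen.

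**Figure D4:**
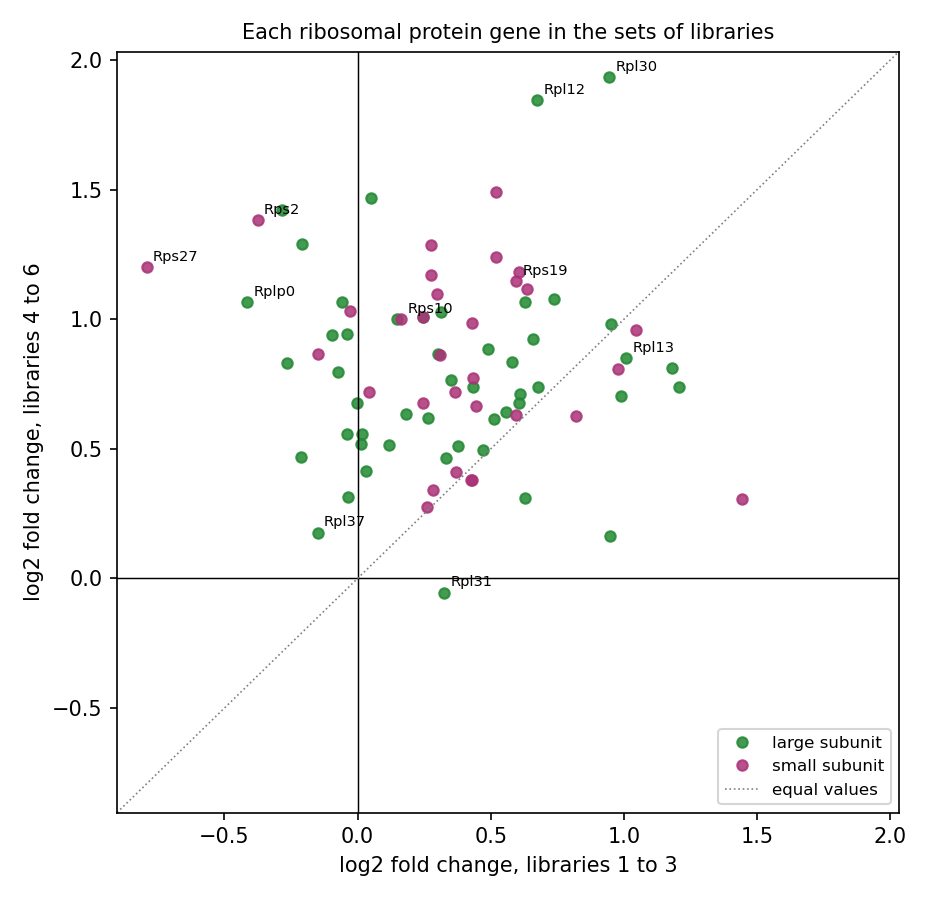
Log2 fold change of each of the 80 tested genes in libraries 1 to 3 (horizontal) and in libraries 4 to 6 (vertical), with the line of equal values; green is the large and purple the small subunit. Most genes lie above the line, 17 lie left of 0 and Rpl31 lies below 0.

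Relative to their own sum no member stood out by these measures. As a percent of the summed ribosomal protein counts, 0 of 80 members differed without overlap between the groups. The share of all genes was not taken on this scale. In TMM-scaled CPM 1.32% of all tested genes were higher without overlap, so a count of 0 among 80 says little. When the edgeR fit used the summed ribosomal protein counts as library size, 0 members passed (0.0789% of all genes were higher). An unadjusted p under 0.05 was found for 0 members, and the share of all genes at that p was not taken for this fit. The values ran from −0.54 for Rpl37 to 0.82 for Rpl30. Rps19 made up 3.51% ± 0.553 of ribosomal protein counts in the AnnexinV-positive group and 2.78% ± 0.352 in the double-negative group (SD, n = 6 each). For Rpl30 the shares were 0.505% ± 0.160 and 0.296% ± 0.138.

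Levels per transcript length, taken from the authors' table of TPM values, spanned 41.9-fold over the 80 tested genes. Rpl41, which encodes a very short basic peptide, was the highest with a mean value of 2925 over the 12 libraries, followed by Rpl35 (2552), Rps19 (2429) and Rps14 (2195), all named for their level. Rpl7l1 was the lowest (69.8), after Rpl39 (142), Rpl12 (147), Rps20 (203) and Rps3 (228). The median was 696, and the upper quartile was 2.10 times the lower. The first neighbours in this order overlapped, since Rpl41 ran from 1256 to 6794 and Rpl35 from 1451 to 4567 over the libraries. The columns of this table have unequal sums, so the values serve for order and ratios.

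**Figure D5:**
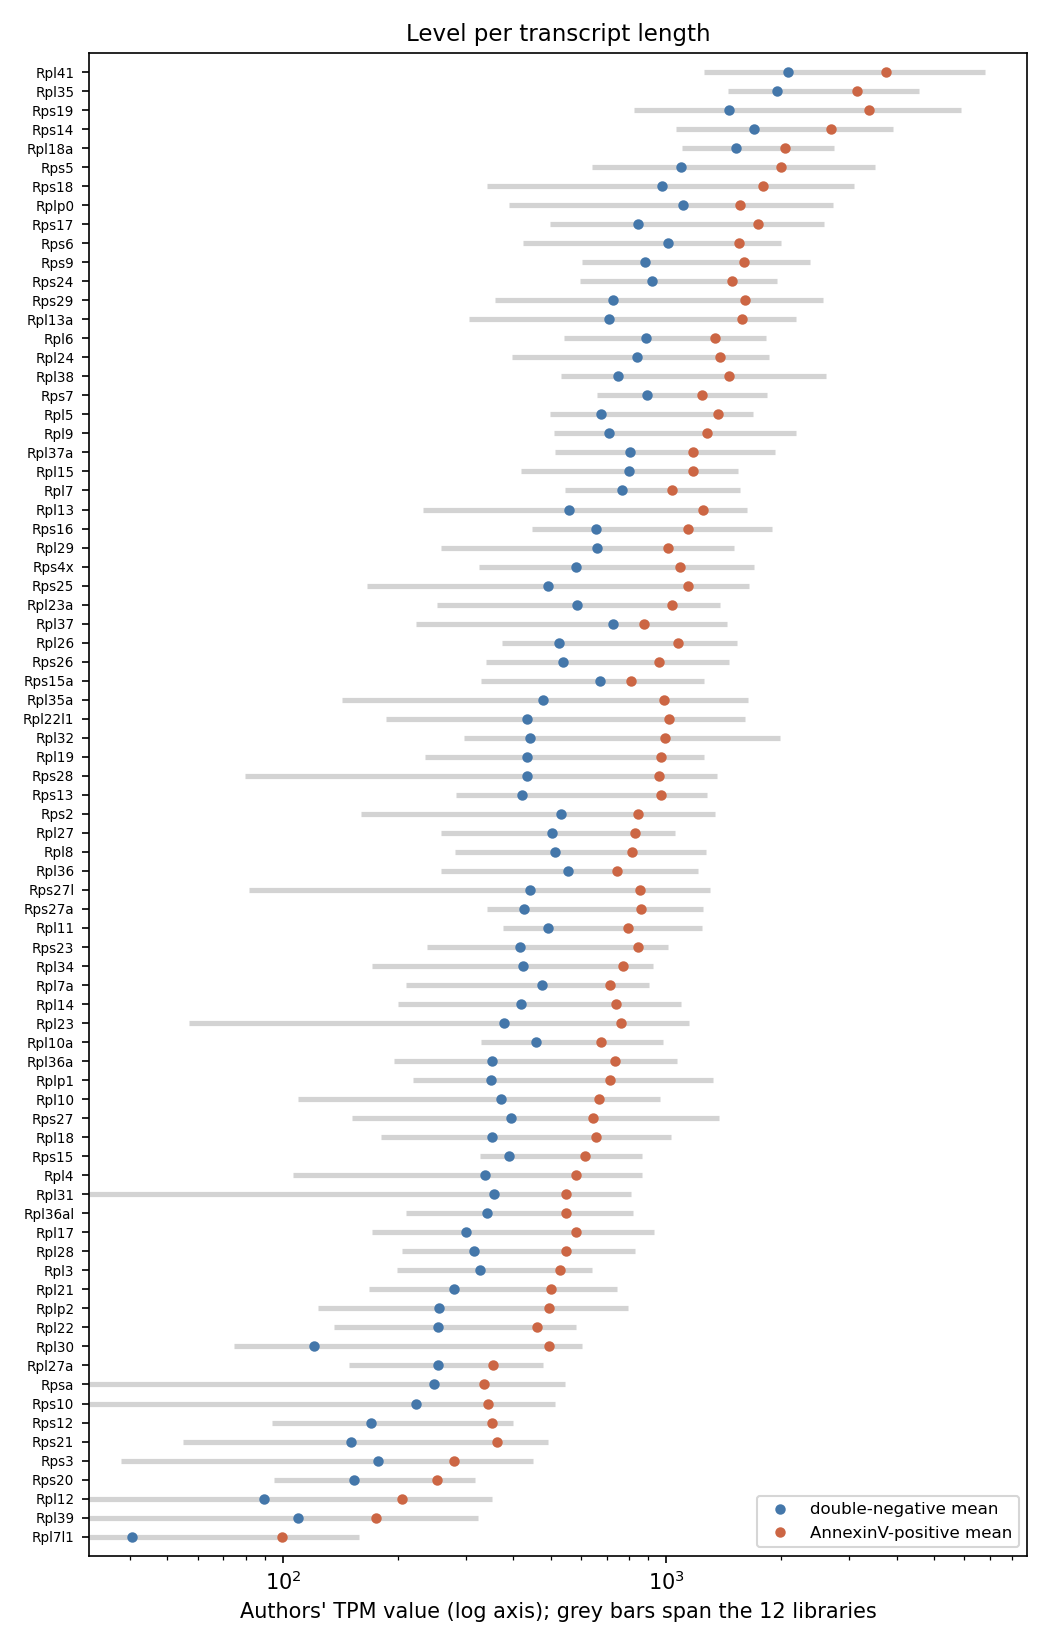
Deposited TPM value of 78 of the 80 tested genes (log axis) as the mean of the AnnexinV-positive libraries (orange) and of the double-negative libraries (blue), with grey bars over the range of the 12 libraries; bars that reach the left edge go on below the axis, down to 0 for Rpl31. Genes are ordered by their mean, from Rpl41 at 2925 to Rpl7l1 at 69.8.

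Many members have processed pseudogenes that share their sequence. Values that were not whole, whose origin the sources used here do not give, held 67.3% of the members' counts. The 17 tested members with no such value were all positive, with a median log2 fold change of 0.66, against 0.63 for those with such values. Rplp1, Rplp2 and Rps27l belong to the 17, while 97.0% of the counts of Rps19 and 99.4% of those of Rpl13 lay in values that were not whole. The table lists 318 pseudogenes named after members, which together held 2.39% as many counts as the members.

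Ribosomal proteins whose symbols are of another form had positive values too. Of 4 such genes 4 were tested and 0 passed in edgeR, DESeq2 or voom, 1 with an unadjusted p under 0.05, with a median log2 fold change of 0.42. As background for this list and those that follow, 15.7% of all tested genes had an unadjusted p under 0.05 in either direction, and 7.97% had it and were higher. Over all genes DESeq2 called 74 higher and 127 lower, and voom 24 and 66. Rack1, a scaffold on the small subunit, had 0.66 (adjusted p = 0.247 in edgeR), Rps3a1 0.45 (adjusted p = 0.375) and Fau, a fusion with Rps30, 0.38 (adjusted p = 0.506).

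Translation factors and other mRNAs of the TOP class had a median of 0.49. Of 20 genes 20 were tested, 19 were positive and 0 passed in edgeR, 5 with an unadjusted p under 0.05, while DESeq2 called 2 and voom 0. Eef1d, a subunit of elongation factor 1, had 147 ± 45.0 CPM in the AnnexinV-positive group and 40.9 ± 18.9 CPM in the double-negative group (SD, n = 6 each), without overlap (1.76, SE 0.48, adjusted p = 0.0606 in edgeR). Its partner Eef1g had 601 ± 105 and 323 ± 101 CPM (0.89, SE 0.26, adjusted p = 0.0675 in edgeR). Vim, an intermediate filament of progenitors, had 550 ± 131 and 250 ± 152 CPM (1.10, SE 0.34, adjusted p = 0.0927 in edgeR).

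Of 25 other initiation factors 24 were tested, 20 were positive and 0 passed in edgeR, with a median of 0.38. An unadjusted p under 0.05 was found for 4, a share near the 15.7% of all tested genes, and DESeq2 called 1 and voom 0. Eif4a2, an RNA helicase, went the other way with 175 ± 66.5 and 348 ± 116 CPM (−1.003, SE 0.32, adjusted p = 0.103 in edgeR). Eif4h had 0.91 (adjusted p = 0.191) and Eif2s2 0.67 (adjusted p = 0.215, both in edgeR).

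Ribosome biogenesis genes, which make and modify rRNA and assemble the subunits, had a median of 0.54. Of 35 genes 22 were tested, 18 were positive and 0 passed in edgeR, while DESeq2 called 2 and voom 1. An unadjusted p under 0.05 was found for 3, a share below the 15.7% of all tested genes in either direction. These 3 were higher, and the share of all tested genes at that p and higher was 7.97%. The nucleolar protein gene Npm1 had 0.84 (SE 0.26, adjusted p = 0.0905 in edgeR). Dkc1, the pseudouridine synthase, had 174 ± 34.8 and 58.5 ± 37.9 CPM (SD, n = 6 each) without overlap (1.55, SE 0.51, adjusted p = 0.115 in edgeR), and Nolc1, another nucleolar protein gene, 1.53 (SE 0.60, adjusted p = 0.194 in edgeR).

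Of 16 regulators around mTORC1, LARP1 and MYC 8 were tested, 6 were positive and 0 passed in edgeR, with a median of 0.65. An unadjusted p under 0.05 was found for 2, and DESeq2 called 1 and voom 0. Larp4b, an RNA-binding protein related to LARP1, had 1.75 (SE 0.50, adjusted p = 0.0661 in edgeR), Mycn 1.09 (adjusted p = 0.299) and Rheb, the activator of mTORC1, 0.70 (adjusted p = 0.484). Of 10 genes of the 5S RNP and p53 surveillance 8 were tested, 6 were positive and 0 passed in edgeR, DESeq2 or voom. Their median was 0.39. Only Rpl5 had an unadjusted p under 0.05, and Rps27l and Rpl11 had the next smallest p. Rpl5, Rps27l and Rpl11 are themselves ribosomal protein genes counted above, so the list is not separate from the members. Of the other tested genes, Mdm4 had 0.81, Mdm2 0.36, Brix1 0.29, Trp53 −0.0004 and Rrs1 −0.09. The mitochondrially encoded genes had a median of 0.06, with 7 of 11 tested genes positive and 0 past the threshold in edgeR, DESeq2 or voom, or at an unadjusted p under 0.05.

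Summed markers of some cell types also differed between the groups. Summed neuron markers stood at 381 to 1366 CPM outside haemoglobin and rRNA in the AnnexinV-positive group and at 2292 to 5326 CPM in the other, without overlap, and 5 of 9 tested genes were lower. Progenitor markers stood at 3487 to 4353 and 1148 to 3321, with 1 of 12 tested genes higher, Hmga2. Of these 12 genes 10 had positive log2 fold changes, while Sox2 (−0.51) and Pax6 (−0.03) had negative ones. Over all tested genes 0.395% were called higher and 1.47% lower in edgeR. Mitosis genes stood at 2595 to 4806 and 211 to 2142, with 3 of 11 higher, Mki67, Cenpf and Knl1. Their part in the ribosomal protein values was not tested, nor was that of the number of detected genes. Macrophage markers stood at 0 to 555 and 0 to 110, with C1qa at 0 in all libraries. Vessel markers stood at 0 to 458 in AnnexinV-positive libraries and at 0 in every double-negative one, and mesenchyme markers at 0 to 1009 and 0 to 46.4, and their part was not tested either. Without double-negative libraries 1 to 3, which held the haemoglobin counts, the medians were 0.49 and 0.63 for the large and the small subunit, and without double-negative libraries 3 and 5, which had the fewest detected genes, 0.43 and 0.51. In edgeR 0 members passed in either case, where 0.474% and 0.0263% of all genes were higher. An unadjusted p under 0.05 was found for 17 and 19 of the 80 members. The share of all genes at that p was taken in the main fit alone, where it was 15.7%.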

How the data were processed

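Of 15 samples, 12 sorted bulk libraries were compared (6 per group); 3 without a sort label were not used. The authors deposited a table of estimated counts (some values are not whole), rounded here to whole numbers, and a table named TPM, used as a score since its columns sum to 764764 to 1835680, per the file values. The submitters' processing notes name STAR, Trimmomatic, Seurat 4 and featureCounts and the builds GRCm38 and mm10, with no roles; the strand setting is not given in the sources used here, so overlapping genes and near-identical copies are uncertain. The main test was edgeR 4.0.16 (R 4.3.3) quasi-likelihood with filterByExpr (minimum count 10, minimum total 15), TMM factors and group as the sole term, two-sided, with Benjamini-Hochberg adjustment over 3800 genes. SE is the fold change over the square root of F. DESeq2 1.42.0, limma 3.58.1, other scalings, filters and left-out libraries were alternatives. The code was tested on simulated data. The members and gene lists were chosen with earlier results of these data known. Genes named are those past the threshold, the 4 with the smallest and the 2 with the largest p per subunit, a fixed set of members and up to 3 genes per list; others are said to be chosen after their values were seen. Promoters are RefSeq windows on GRCm38.p6, positions GENCODE M21. Some genes that this rule names are not reported here, and all members stay in the counts and sums.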

Additional observations from a re-analysis of the deposited data

Results flagged for a closer look

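Of 64 groups of 6 libraries checked for a library far from the others, 1 held one, where chance gives about 1 in 20 groups. Rplp1 stood at 379 CPM in AnnexinV-positive library 6, with the gap to the next library 0.680 of the group's range and above Dixon's critical value.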

How the results depend on the processing

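Medians of both subunits ran from 0.32 to 0.84 over the large and from 0.37 to 0.92 over the small subunit in the alternatives run, except on scaling to the ribosomal protein total, where they were 0.045 and 0.092 with 47 of 80 members positive. The count of called members, 1 with TMM factors, was 0 with RLE factors, in libraries 1 to 3 or 4 to 6 alone and on leaving out the double-negative libraries numbered 1 to 3 or 3 and 5. It was 4 with upper-quartile factors, without the filter and with limma on deposited TPM values, 7 with library size only, 6 with DESeq2, 2 with voom, 3 with a term for the sets of libraries and 2 with TMM factors from non-members, added after seeing the data. Leaving out 1 library gave 0 to 3. Over all genes, 71 calls became 239 without the filter, 201 with DESeq2, 32 on TPM values, 21 in libraries 4 to 6, 42 on dropping double-negative numbers 1 to 3, 14 on dropping 3 and 5, and 46 to 117 without 1 library, 46 without double-negative library 3 and 117 without double-negative library 4. Higher and lower calls, 15 and 56, were 42 and 55 with upper-quartile factors, 52 and 32 with library size only, 17 and 15 on TPM values and 3 and 158 on scaling to the ribosomal protein total. The median of all genes, 0.06, was 0.28 with library size only, 0.19 without the filter or with voom, 0.42 on TPM values 0.18 with the replicate block and −0.47 on scaling to the ribosomal protein total, and 79, 80, 78, 76, 78 and 79 of 80 members lay above it. The difference in large-subunit share of counts was 1.06 percentage points, 2.18 on TPM values and 0.125 over members with whole values only, and that in small-subunit share of counts 0.823, 1.89 and 0.183. These differences are of unlike quantities, since members with whole values are a part of each subunit. The ratios of the group means, in the same order, were 1.54, 1.51 and 1.57 for the large and 1.62, 1.61 and 1.70 for the small subunit. Of 868 alternative values of 29 named members, 18 changed sign. In libraries 1 to 3 alone these were Rpl37 (−0.15), Rpl11 (−0.075), Rpl38 (−0.21), Rpl39 (−0.26), Rplp0 (−0.42), Rplp2 (−0.28), Rps14 (−0.15) and Rps27 (−0.79). The Rpl37 log2 fold change was −0.017 with a minimum count of 20, −0.14 without the first 3 double-negative libraries, and −0.14 to 0.23 without 1 library, below 0 without AnnexinV-positive library 6 or double-negative library 1 or 5. The Rpl31 log2 fold change was −0.055 in libraries 4 to 6, −0.28 without the first 3 double-negative libraries, −0.022 without numbers 3 and 5, and −0.10 to 0.25 without 1 library, below 0 without double-negative library 3 or AnnexinV-positive library 4. The cause was not tested. With the replicate number as a block 1 member passed, Rpl13 in place of Rps19. Same-numbered libraries correlated at −0.00693 to 0.0780 and only number 3 best with its own, so no pairing by number was seen. Depth limits single members: 1 count was worth 2.41 to 15.4 CPM.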
